A study of Mus musculus with 2 samples.

Results

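Genes of mitosis and the kinetochore were examined in cultured primary hepatic stellate cells of the mouse, the pericytes of the liver sinusoid that turn into matrix-producing myofibroblasts after injury or on plastic. The members were 58 named genes, looked up by symbol in the deposited gene table, and 57 of them were found among 17128 gene symbols. The remaining name, Sgol1, was absent under that spelling and is given below under its current symbol, Sgo1. The table held 1 RNA-seq library per group. Both libraries came from cells of genotype Adar1f/f/Cre-ER, which carry floxed alleles of the gene for ADAR1, an enzyme that edits adenosines in double-stranded RNA, and the tamoxifen-activated recombinase Cre-ER. One culture received vehicle and the other received 100 nM 4-OHT (4-hydroxytamoxifen), which switches the recombinase on, and both were kept in serum-containing medium for 4 days of culture activation. The sources used here give neither the promoter that drives Cre-ER nor the age, sex and number of the mice. No library with 4-OHT but without floxed alleles was analysed here, so 4-OHT itself and loss of ADAR1 cannot be told apart. The floxed gene was not analysed here, and the labels were therefore not checked against their target.

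Mitosis is driven by cyclin-dependent kinase 1 bound to cyclins A and B, which brings about chromosome condensation, spindle assembly and the attachment of each centromere to microtubules through the kinetochore. A checkpoint at unattached kinetochores holds back the anaphase-promoting complex, a ubiquitin ligase that destroys cyclin B and securin once every chromosome is attached. Separase then cuts cohesin, the sister chromatids part, and a contractile ring divides the cell. The transcripts of these proteins accumulate together late in the cell cycle, and stellate cells, quiescent in healthy liver, enter the cycle as they activate.

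Levels are given as FPKM, fragments scaled for transcript length and library size, which can be set side by side between genes. Changes are the log2 of FPKM plus 1 with 4-OHT minus the same with vehicle, which understates the change of genes near 1 FPKM. A ratio is FPKM with 4-OHT over FPKM with vehicle, with nothing added. With n = 1 per group there was no spread between replicates and no test across conditions, and every difference is between these 2 libraries. A gene was counted as higher or lower when its change reached 2-fold and it had at least 1 FPKM in the higher library. By the steps in its low values, a vehicle value of 1 FPKM over 1 kilobase equalled 38.6 fragments, and a 4-OHT value 30.5. The library sums were 492899 and 553155 FPKM, with medians of 6.10 and 6.09.

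The label of the cells was set against marker genes, and in both libraries the markers of macrophages and endothelium stood far above those of stellate cells. The 12 macrophage markers summed to 6174 FPKM with vehicle and 4139 with 4-OHT, and none was listed at 0. The 12 endothelial markers summed to 1977 and 1888 FPKM, again with none at 0. Of 14 stellate cell markers 13 were listed, and they summed to 254 and 126 FPKM. With vehicle the stellate cell markers ran from 1.11 FPKM for Lhx2, a transcription factor, to 120.9 FPKM for Dcn, the matrix proteoglycan decorin, with a median of 10.6 FPKM. The macrophage markers ran from 3.18 FPKM for Timd4, a receptor of resident macrophages, to 3050 FPKM for Lyz2, lysozyme, with a median of 332 FPKM. By these levels the libraries held RNA of several liver cell types, and which of them expressed the mitotic genes could not be read from bulk RNA. Fewer dividing cells and less mitotic RNA in each cell cannot be told apart in such data.

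Nearly the whole set was lower in the 4-OHT library. Of the 57 members, 56 were below their vehicle level and 1, Pttg1, was above it, where 46.8% of 13558 genes at 1 FPKM or more were below. At 2-fold, 27 members were lower, 29 lay within 2-fold and 1 was higher, against 3.48% of all genes lower and 5.78% higher. The median change of the members was −0.94, beside 0.03 for all genes, whose middle 50% ran from −0.25 to 0.30. By ratio, 46 members were at 0.5 or less, where 6.74% of all genes were. The member ratios had a median of 0.344, 38 of them lay between 0.25 and 0.5, 8 lay under 0.25, and none lay between 0.8 and 1. With each library rescaled to a common sum, 46 members were at least 2-fold lower, and of 15374 genes then at the minimum 957 were lower and 786 higher, in place of 472 lower and 783 higher. That rescaling also raised every value and so lessened the weight of the added 1, and centring the changes on their median, which does not, left 27 members lower, 515 genes lower and 746 higher. Exonic bases are shared with another gene by 16 members, among them Ube2c (22.8%, with Tnnc2), Ccna2 (12.5%, with Exosc9) and Prc1 (11.1%, with Rccd1), and their values are less certain for it. Without those 16, 16 of 41 members were lower. Just past the 2-fold line lay Knl1 (−1.02) and Kif4 (−1.03), and just short of it Pbk (−0.95) and Ndc80 (−0.94).

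**Figure D1:**
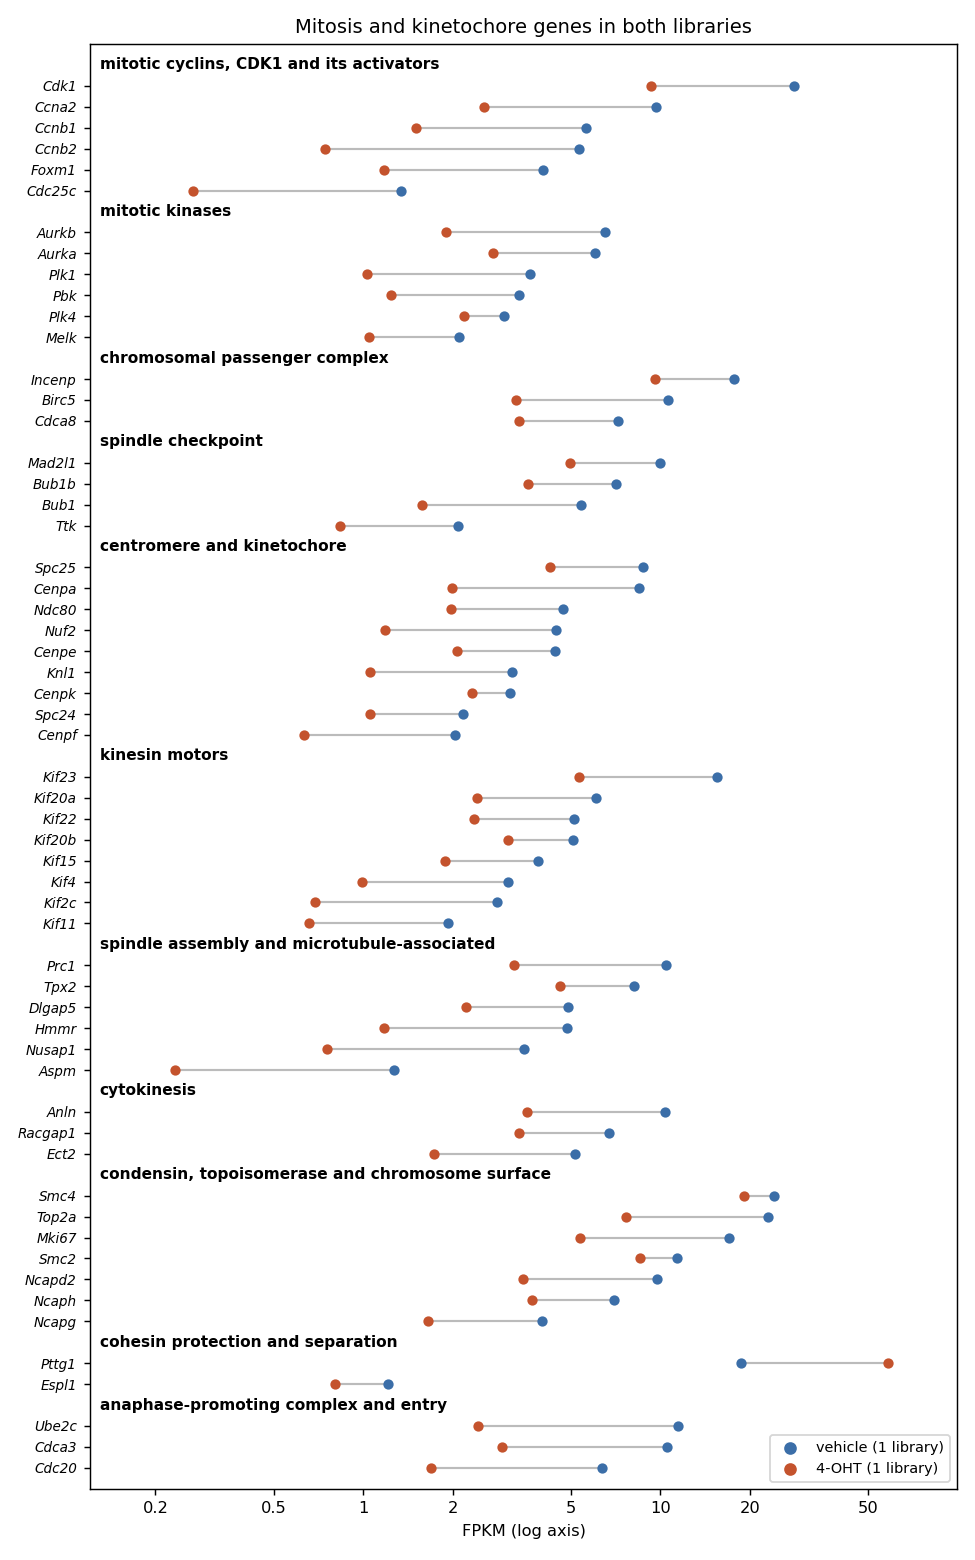
FPKM of each measured member in the vehicle library (blue) and the 4-OHT library (red) on a log axis, grouped by role, with 1 library per group and no error bars. In 56 of 57 rows the red point lies left of the blue one, and the exception is Pttg1, at 18.7 and 58.2 FPKM.

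The members were expressed at ordinary levels with vehicle and at low levels with 4-OHT. Their median was 5.40 FPKM with vehicle and 2.18 with 4-OHT, which moved the median member from percentile 47.9 to percentile 35.2 of all genes. With vehicle 13 members reached 10 FPKM and none was under 1, whereas with 4-OHT 2 reached 10 FPKM and 10 were under 1. The most abundant with vehicle were Cdk1 (28.2 FPKM), Smc4 (24.2 FPKM) and Top2a (23.1 FPKM), and the scarcest was Espl1 (1.21 FPKM). With 4-OHT the order was led by Pttg1 (58.2 FPKM) and Smc4 (19.1 FPKM), and Aspm was the lowest (0.233 FPKM). Across the 57 members, which share both libraries, the levels of the libraries had a Spearman correlation of 0.89, and the vehicle level and the log2 ratio one of 0.11.

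In the authors' deposited table, 8 members were lower at a q-value under 0.05, against 0.753% of all genes, and 1 was higher, against 1.72%. The lower ones were Mki67 (0.00466), Hmmr (0.0160), Ccnb2 (0.0224), Top2a (0.0252), Aurkb (0.0358), Anln (0.0458), Ube2c (0.0458) and Ect2 (0.0479), and the higher one was Pttg1 (0.0252). A large change did not always come with a low q-value. Cdc20, among the 10 members with the largest changes, was listed at 0.9996. The sources used here do not say how the authors' deposited q-values drew a spread from single libraries, and they compare these libraries, not the conditions.

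Genes that peak in mitosis are known to share short promoter elements: the cell cycle genes homology region or CHR, bound by the MuvB core of the DREAM and B-MYB complexes, and the CCAAT box, bound by NF-Y. The promoters of members with large changes are shown here from RefSeq (GRCm38.p6, the build of the deposited loci), because nearly all members differed in one direction and 1 member in the other. Each run covers 250 bases before the annotated start to 50 after it, 5′ to 3′ on the gene's own strand. Capitals mark the CHR letters TTTGAA or TTCGAA and the CCAAT letters, on either strand, so that TTCAAA and ATTGG are the same elements read from the other strand. Adjoining capitals can be overlapping matches. The first 3 genes had the lowest changes, Cdk1 and Top2a were the most abundant of the strongly lower genes, and Pttg1 was the member that was higher. They lie at chr2:164769679-164769978, plus strand (Ube2c), chr9:70421505-70421804, minus strand (Ccnb2), chr5:30666636-30666935, plus strand (Cenpa), chr10:69352863-69353162, minus strand (Cdk1), chr11:99024140-99024439, minus strand (Top2a) and chr11:43425932-43426231, minus strand (Pttg1).
Ube2c: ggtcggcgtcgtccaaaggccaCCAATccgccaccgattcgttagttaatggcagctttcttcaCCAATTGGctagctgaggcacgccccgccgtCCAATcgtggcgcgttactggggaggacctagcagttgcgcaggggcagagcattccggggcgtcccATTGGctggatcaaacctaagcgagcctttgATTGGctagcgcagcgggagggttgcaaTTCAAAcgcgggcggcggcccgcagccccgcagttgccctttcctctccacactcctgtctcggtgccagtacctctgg
Ccnb2: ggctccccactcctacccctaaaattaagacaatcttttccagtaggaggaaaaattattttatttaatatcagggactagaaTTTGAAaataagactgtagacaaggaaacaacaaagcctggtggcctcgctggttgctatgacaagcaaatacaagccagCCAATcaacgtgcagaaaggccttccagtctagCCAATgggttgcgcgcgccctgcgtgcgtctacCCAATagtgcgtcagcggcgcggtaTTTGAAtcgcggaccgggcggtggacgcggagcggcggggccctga
Cenpa: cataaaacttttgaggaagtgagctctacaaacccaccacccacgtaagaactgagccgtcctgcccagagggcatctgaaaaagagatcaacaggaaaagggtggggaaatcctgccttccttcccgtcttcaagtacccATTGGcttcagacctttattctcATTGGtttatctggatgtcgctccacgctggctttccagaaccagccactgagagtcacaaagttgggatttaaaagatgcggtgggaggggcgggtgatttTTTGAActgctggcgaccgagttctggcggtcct
Cdk1: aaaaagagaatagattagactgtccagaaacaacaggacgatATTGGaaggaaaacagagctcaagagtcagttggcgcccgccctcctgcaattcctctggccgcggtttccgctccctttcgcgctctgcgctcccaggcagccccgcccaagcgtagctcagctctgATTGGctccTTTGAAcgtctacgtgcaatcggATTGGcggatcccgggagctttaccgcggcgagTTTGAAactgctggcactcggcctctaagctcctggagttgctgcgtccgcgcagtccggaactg
Top2a: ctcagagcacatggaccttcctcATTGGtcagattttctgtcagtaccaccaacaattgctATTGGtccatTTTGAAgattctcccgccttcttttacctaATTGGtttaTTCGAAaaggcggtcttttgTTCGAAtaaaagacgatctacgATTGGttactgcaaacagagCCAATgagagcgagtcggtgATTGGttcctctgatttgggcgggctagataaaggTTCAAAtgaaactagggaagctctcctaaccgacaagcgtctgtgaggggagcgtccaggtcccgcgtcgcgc
Pttg1: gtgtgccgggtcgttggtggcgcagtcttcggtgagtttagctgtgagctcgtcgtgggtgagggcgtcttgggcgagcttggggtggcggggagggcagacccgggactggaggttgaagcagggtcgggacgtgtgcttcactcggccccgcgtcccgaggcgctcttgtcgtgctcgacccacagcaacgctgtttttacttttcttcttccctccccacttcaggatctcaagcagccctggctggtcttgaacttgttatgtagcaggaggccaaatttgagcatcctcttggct

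The 5 lower genes shown all held both elements in this window, and the Pttg1 window held neither. These promoters were chosen by the changes of their genes, so the contrast tests nothing. Ube2c had 1 CHR and 6 CCAAT matches, Ccnb2 2 and 3, Cenpa 1 and 2, Cdk1 2 and 3, and Top2a 4 and 6. The RefSeq start used for Pttg1 lies 270 bases downstream of the outermost start in GENCODE M21, so its window lies within the GENCODE gene model, and the lack of these letters there says nothing of the factors. Among the 10 members with the largest changes, Mki67, Cdc20 and Cdca3 also held both elements, with 2, 1 and 1 CHR matches. The RefSeq start used for Cdca3 likewise lies 629 bases downstream of the outermost GENCODE start, and that used for Cenpa 109 bases downstream. Ccna2 was not matched in RefSeq.

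Over the 46 members matched in RefSeq by symbol, the same 2 elements were common. Of their 50 promoters, 74% held a CHR, against 19.2% of all 32851 promoters of that length, and 72% held a CCAAT box, against 37.4%. Both were in 62% of the member promoters and 7.52% of all, and neither was in 16% and 50.9%. At least 2 CCAAT boxes stood in 46% of member promoters and 11.7% of all. Cenpk, Ect2 and Prc1 contributed more than 1 window, and those of Ect2 and of Prc1 overlap. For 40 of the 50 member promoters the RefSeq start lay within 100 bases of the outermost GENCODE start. The farthest were those of Kif2c and Cdca8, at 3867 and 2394 bases downstream. The 29 members with both elements had changes from −1.86 to −0.30 with a median of −1.18, and 16 of them were at least 2-fold lower. Of 6 members with a CHR only, 3 were 2-fold lower, with a median of −0.98. Of 3 members with a CCAAT box only, 1 was 2-fold lower, with a median of −0.82. Of the 8 members with neither, namely Birc5, Mad2l1, Melk, Ncaph, Nuf2, Nusap1, Plk4 and Pttg1, 3 were 2-fold lower and 1 higher, with a median of −0.82. The RefSeq starts of Mad2l1 and Plk4 lie more than 50 bases upstream of the outermost GENCODE start, so their windows end before that start. Birc5, Nuf2 and Nusap1 were thus lower at 2-fold without these letters in the window. No test compared these groups of members. A match is a description of the letters and not a measured binding site.

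**Figure D2:**
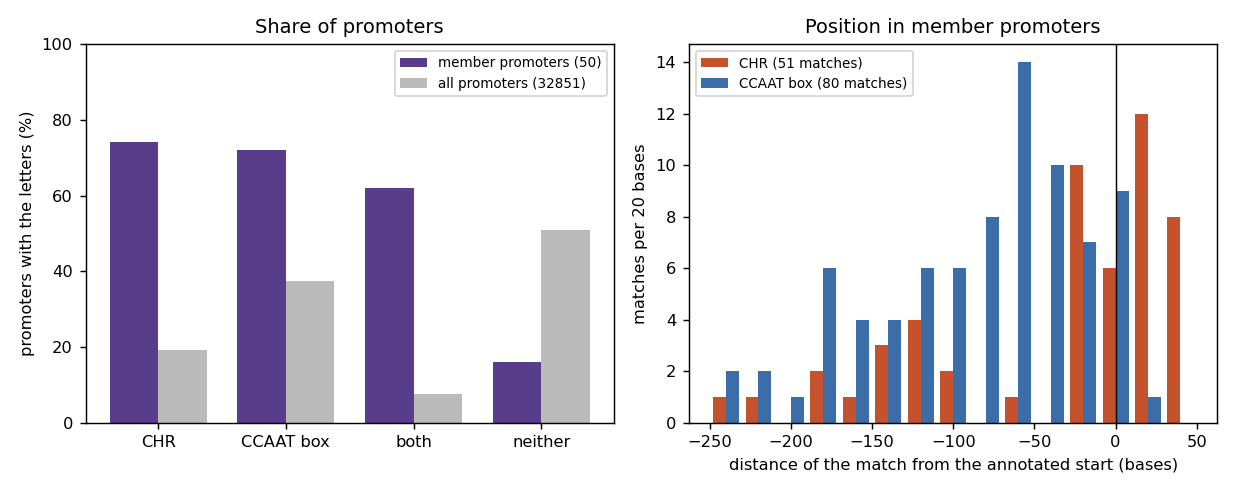
Left, the share in percent of 50 member promoters (purple) and of all 32851 promoters (grey) that hold the CHR letters, the CCAAT letters, both or neither; right, the distance in bases of each match in member promoters from the annotated start, in bins of 20 bases. Both elements stand in 62% of member promoters and 7.52% of all promoters, and the median position was −68.5 for the CCAAT box and −2 for the CHR.

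The cyclins, CDK1 and its activators were among the lowest, with 5 of 6 at least 2-fold lower and a median change of −1.45. Cdk1, the kinase that starts mitosis (GRCm38, minus strand of chromosome 10 from 69335146 to 69352938), was at 28.2 FPKM with vehicle and 9.29 with 4-OHT (change −1.51). Ccnb2, cyclin B2 (minus strand of chromosome 9 from 70407692 to 70421547), was at 5.32 and 0.747 FPKM (change −1.86). Ccna2, cyclin A2, which acts from S phase into mitosis (minus strand of chromosome 3 from 36564865 to 36572150), was at 9.65 and 2.55 FPKM (change −1.59). The ratios of these 3 genes ran from 0.140 to 0.329, and that of Ccnb2 was the lowest of all members. Ccnb2 has 1 annotated transcript, so its fragments could be counted: 278 with vehicle and 31 with 4-OHT gave a ratio of 0.140 with an exact 95% interval of 0.0936 to 0.204, which covers counting error only. Ccnb1, cyclin B1, was at 5.60 and 1.51 FPKM (change −1.40). It has near-identical pseudogene copies, among them Ccnb1-ps at 99.2% identity over 1287 bases, so its fragments may be divided. Foxm1, the transcription factor that drives many late cell cycle genes, was at 4.03 and 1.18 FPKM (change −1.21). Cdc25c, the phosphatase that activates CDK1, was at 1.35 and 0.267 FPKM, and its change of −0.89 stayed within 2-fold while its ratio was 0.198.

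Ube2c, Cdca3 and Cdc20, grouped as genes of the anaphase-promoting complex and mitotic entry, were all 3 at least 2-fold lower. Ube2c, the ubiquitin-conjugating enzyme of the complex (plus strand of chromosome 2 from 164769898 to 164778822), was at 11.5 FPKM with vehicle and 2.44 with 4-OHT (change −1.86), the lowest of all members on this scale. Cdca3, linked to the destruction of the CDK1 inhibitor WEE1 (plus strand of chromosome 6 from 124829547 to 124833701), was at 10.5 and 2.94 FPKM (change −1.55). Cdc20, the activator that the spindle checkpoint inhibits (minus strand of chromosome 4 from 118432901 to 118437352), was at 6.34 and 1.69 FPKM (change −1.45). Their ratios lay close together, from 0.213 to 0.279. In contrast, a list of 24 genes of the complex and of cohesin had a median change of 0.03 (−0.13 with each library rescaled). None was past 2-fold in either direction. The list held core subunits and also Fzr1, Nipbl, Wapl, Pds5a and Pds5b, which are not core subunits. Its lowest gene was Anapc13, at 33.1 and 21.5 FPKM (change −0.60), followed by Anapc15 at 53.3 and 36.7 FPKM (change −0.52), and its highest was Anapc16, at 21.3 and 29.1 FPKM (change 0.43).

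Securin stood alone. Pttg1, which encodes securin, the inhibitor that keeps separase inactive until the anaphase-promoting complex destroys it (minus strand of chromosome 11 from 43420250 to 43426251), was at 18.7 FPKM with vehicle and 58.2 with 4-OHT. The change was 1.59 and the ratio 3.12, and it stood at percentile 74.0 of all genes with vehicle and at percentile 91.2 with 4-OHT. No annotated transcript of another gene matched its longest transcript, 1 of 10 annotated, at 95% identity over 300 bases. The other transcripts of Pttg1 were not searched. No other gene model shares exonic bases with Pttg1. Espl1, which encodes separase itself, was at 1.21 and 0.803 FPKM (change −0.30), within 2-fold. Sgo1, the current symbol of Sgol1 and the protector of cohesin at the centromere, was at 1.72 and 0.625 FPKM, a change of −0.75 and a ratio of 0.363. Sgo1 was left out of the counts; with it, 27 of 58 genes were at least 2-fold lower. Together the members other than Pttg1 summed to 405 FPKM with vehicle and 165 with 4-OHT, a ratio of 0.407.

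**Figure D3:**
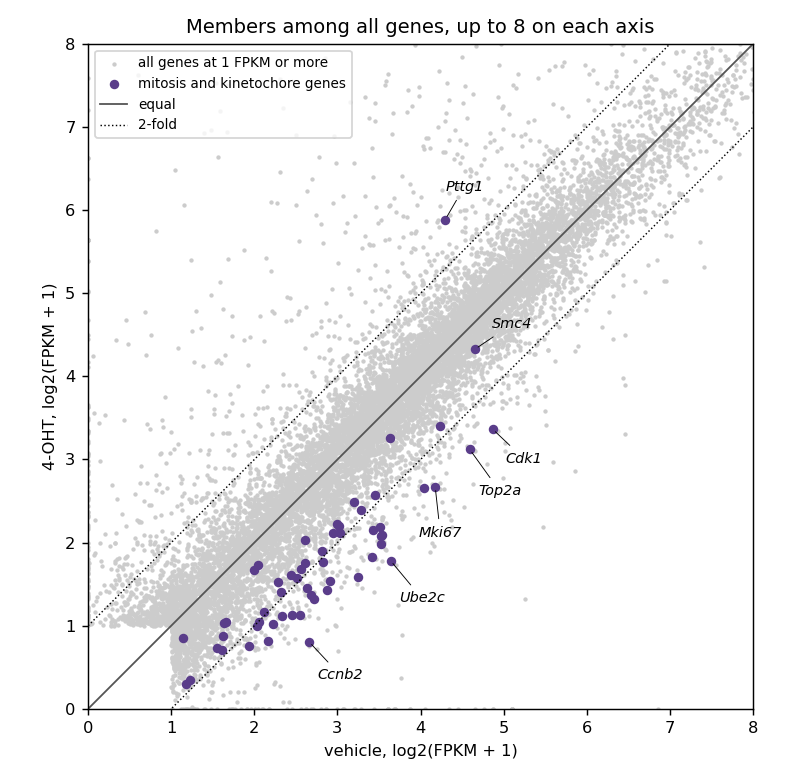
Level in the vehicle library (x axis) against the 4-OHT library (y axis), both as log2(FPKM + 1), for genes at 1 FPKM or more (grey) and the 57 members (purple), with the line of equality and the 2-fold lines dotted. Members lie below the line of equality apart from Pttg1, which lies above the upper 2-fold line, and Smc4 lies close to equality at 24.2 and 19.1 FPKM.

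Of the 6 mitotic kinases, 2 were at least 2-fold lower and the median change was −0.93. Aurkb, the kinase of the chromosomal passenger complex, was at 6.51 FPKM with vehicle and 1.90 with 4-OHT (change −1.37), and Plk1, which acts at centrosomes, kinetochores and the midzone, at 3.66 and 1.03 FPKM (change −1.20). Pbk, a kinase of dividing cells, was at 3.33 and 1.24 FPKM (change −0.95), and it has a pseudogene copy at 95.4% identity. Aurka, the spindle pole kinase, was at 6.03 and 2.74 FPKM (change −0.91). At the other end, Plk4, which starts centriole duplication ahead of mitosis, was at 2.98 and 2.18 FPKM (change −0.32). Melk, an AMPK-related kinase, lay between them at 2.11 and 1.05 FPKM (change −0.60). Aurora B and its partners thus did not have equal values: Birc5, the survivin subunit of the passenger complex, was at 10.6 and 3.26 FPKM (change −1.45). Cdca8, borealin, was at 7.20 and 3.34 FPKM (change −0.92), and Incenp, the scaffold, at 17.8 and 9.57 FPKM (change −0.83).

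The spindle checkpoint genes had 1 of 4 at least 2-fold lower, with a median change of −0.85. Bub1, a checkpoint kinase at the kinetochore, was at 5.40 and 1.58 FPKM (change −1.31). Mad2l1, the MAD2 protein that binds CDC20, was at 9.96 and 4.95 FPKM (change −0.88), and Bub1b, BUBR1 of the same inhibitory complex, at 7.09 and 3.59 FPKM (change −0.82). Ttk, the MPS1 kinase that starts the signal, was at 2.08 and 0.838 FPKM (change −0.74). Checkpoint genes outside the member set had unlike values, all within 2-fold on this scale. Kntc1, a subunit of the RZZ complex, was at 3.17 and 1.33 FPKM (change −0.84), and Zwilch, of the same complex, at 4.43 and 2.79 FPKM (change −0.52). Mad1l1, the MAD1 protein, was at 11.2 and 9.15 FPKM (change −0.27) and Bub3, a partner of BUB1, at 28.3 and 27.4 FPKM (change −0.05).

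Of the 9 genes of the centromere and kinetochore, 3 were at least 2-fold lower, with changes from −1.66 to −0.31. Cenpa, the histone H3 variant that marks the centromere (plus strand of chromosome 5 from 30666777 to 30674830), was at 8.46 FPKM with vehicle and 1.99 with 4-OHT (change −1.66). Nuf2, a subunit of the NDC80 complex that grips microtubules, was at 4.45 and 1.19 FPKM (change −1.32), and Knl1, the scaffold for BUB proteins, at 3.16 and 1.06 FPKM (change −1.02). The other NDC80 subunits were less far apart between the libraries, with ratios of 0.418 for Ndc80, 0.486 for Spc25 and 0.488 for Spc24, beside 0.266 for Nuf2. Cenpf, a large protein of the outer kinetochore, had a ratio of 0.309, and Cenpe, the kinetochore motor, 0.467. Cenpk, of the network that stays at the centromere throughout the cycle, was at 3.12 and 2.33 FPKM (change −0.31), the smallest difference of this role. From the same network but outside the member set, Cenpt was at 9.65 and 8.04 FPKM (change −0.24) and Cenph at 2.70 and 1.09 FPKM (change −0.82). Above their vehicle level were Cenpl, at 2.31 and 3.07 FPKM (change 0.30), and Cenpm, at 1.25 and 1.44 FPKM (change 0.11). Cenpi, Cenpn, Cenpp, Cenpq, Cenpu and Cenpw were below it, with changes from −0.66 to −0.11.

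All 8 kinesin motors were below their vehicle level, and 4 were at least 2-fold lower. Kif23, the motor of centralspindlin, was at 15.5 and 5.32 FPKM (change −1.39), Kif2c, a microtubule depolymerase at centromeres, at 2.83 and 0.688 FPKM (change −1.18), and Kif20a, a midzone motor, at 6.09 and 2.42 FPKM (change −1.05). Kif4, a chromosome-bound motor, was at 3.08 and 0.994 FPKM (change −1.03). Kif11, which pushes the spindle poles apart, had a ratio of 0.340, and Kif15, which can stand in for it, one of 0.487. Kif22, another chromosome-bound motor, and Kif20b, a motor of cytokinesis, had ratios of 0.462 and 0.605. The exons of Kif20a share 29.3% of their bases with Cdc23 on the opposite strand (16.5 and 15.1 FPKM), and the sources used here do not say whether counting used strand, so their fragments cannot be told apart there.

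Spindle assembly factors were lower at 2-fold in 3 of 6 genes. Prc1, which bundles midzone microtubules, was at 10.5 and 3.21 FPKM (change −1.45), Hmmr, a spindle protein that also binds hyaluronan, at 4.85 and 1.18 FPKM (change −1.43), and Nusap1, a microtubule bundler near chromosomes, at 3.47 and 0.756 FPKM (change −1.35). Aspm, of the spindle pole, was at 1.27 and 0.233 FPKM, and the added 1 held its change to −0.88 although its ratio of 0.183 was the second lowest of all members. Dlgap5, a stabiliser of kinetochore fibres, had a ratio of 0.455 and Tpx2, the activator of Aurora A, one of 0.566. Of the 3 cytokinesis genes, Anln, the ring scaffold anillin, was at 10.4 and 3.56 FPKM (change −1.32) and Ect2, which activates RhoA at the division plane, at 5.18 and 1.73 FPKM (change −1.18). Racgap1, the partner of Kif23 in centralspindlin, was at 6.73 and 3.34 FPKM (change −0.83).

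**Figure D4:**
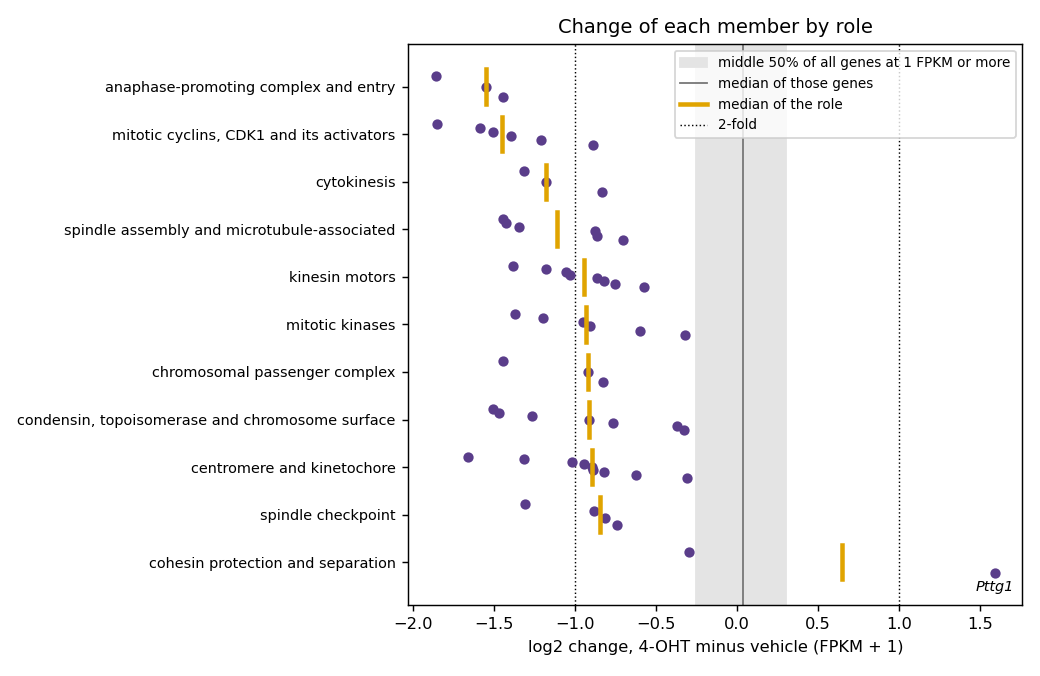
Change of each member (points) as log2(FPKM + 1) with 4-OHT minus vehicle, by role, with the median of each role in yellow, the middle 50% of all genes in grey and 2-fold lines dotted. Apart from the cohesin role, medians run from −1.55 for the anaphase-promoting complex genes to −0.85 for the spindle checkpoint. The cohesin role has a median of 0.65 and holds Espl1 at −0.30 and Pttg1 at 1.59.

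Among genes that shape the chromosome, 3 of 7 were at least 2-fold lower. Mki67, the proliferation antigen Ki-67 that coats mitotic chromosomes (minus strand of chromosome 7 from 135689784 to 135716361), was at 17.1 and 5.36 FPKM (change −1.51). Top2a, the topoisomerase that untangles sister chromatids (minus strand of chromosome 11 from 98992943 to 99024189), was at 23.1 and 7.70 FPKM (change −1.47). Condensin, the ring that compacts chromosomes, had unlike values among its subunits. The subunits of condensin I were below their vehicle level. Ncapd2 was at least 2-fold lower, at 9.73 and 3.46 FPKM (change −1.27). Ncapg, at 4.01 and 1.65 FPKM (change −0.92), and Ncaph, at 6.97 and 3.69 FPKM (change −0.77), stayed within 2-fold. Ncapg shares 13.4% of its exonic bases with Lcorl (19.9 and 20.4 FPKM), and Ncapd2 3.78% with Scarna10 (263 and 238 FPKM). The values of Ncapg and Ncapd2 are less certain for it. The core ATPases that both condensins share were nearer to equality, with Smc2 at 11.4 and 8.54 FPKM (change −0.37) and Smc4 at 24.2 and 19.1 FPKM (change −0.33). The subunits of condensin II, which are not members, were at 15.2 and 10.2 FPKM for Ncapg2, 6.60 and 5.53 for Ncapd3 and 21.2 and 19.4 for Ncaph2. The condensin I ratios of 0.355 to 0.529 thus lay below those of the shared core and of condensin II, which ran from 0.676 to 0.916, a difference with no test in these data.

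The rest of the cell cycle was set beside the members with lists of genes that are not members. Of 61 further mitosis genes at 1 FPKM or more, 8 (13.1%) were at least 2-fold lower and 1 was higher. Their median change was −0.49, and 56 of them were below their vehicle level. The lowest were Pimreg, a mitotic regulator, at 3.04 and 0.464 FPKM (change −1.46) and Cdc25b, a phosphatase that activates CDK1, at 4.75 and 1.30 FPKM (change −1.32). Their deposited q-values were 0.0306 for Pimreg and 0.9996 for Cdc25b. The higher gene was Sass6, the hub of the new centriole, at 6.46 and 24.6 FPKM (change 1.78). Of 35 genes of DNA replication and S phase, 2 were lower (5.71%, beside 3.48% of all genes), none was higher, and the median was −0.44. Those 2 were Tk1, thymidine kinase, at 10.3 and 3.27 FPKM (change −1.41, deposited q-value 0.9996) and Rrm2, a subunit of ribonucleotide reductase, at 14.6 and 5.15 FPKM (change −1.35, deposited q-value 0.0334). The highest was Rfc3, of the clamp loader, at 8.54 and 10.4 FPKM (change 0.26). The median of the members was thus lower than those of both lists, but the lists differ in level and no test compared them. The order of the other 2 medians depended on the setting: further mitosis genes were at −0.23 and replication genes at −0.29 with a pseudocount of 5, and at −0.27 and −0.47 with a minimum of 5 FPKM.

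Regulators of the cycle had medians near 0, with genes on both sides. Of 20 genes listed as DREAM, B-MYB and RB regulators none passed 2-fold, with a median of −0.06. The list also held the NF-Y genes Nfya, Nfyb and Nfyc and the gene Dyrk1a, and was not limited to subunits of these complexes. The lowest were E2f8 at 1.94 and 0.818 FPKM (change −0.69) and E2f7 at 1.95 and 0.880 FPKM (change −0.65), both repressors of the E2F family. The highest was Rbl1, the pocket protein p107, at 6.83 and 13.2 FPKM (change 0.86). Mybl2, the B-MYB factor of the CHR complexes, was at 2.43 and 1.94 FPKM (change −0.22). Of 13 CDK inhibitors, D-type cyclins and their kinases, 1 was lower (7.69%, beside 3.48% of all genes), none was higher, and the median was −0.14. That gene was Cdkn2c, the inhibitor p18, at 3.79 and 1.21 FPKM (change −1.12), followed by Cdkn2b, the inhibitor p15, at 21.0 and 11.6 FPKM (change −0.80). Cdkn1a, the inhibitor p21, was at 77.0 and 83.3 FPKM (change 0.11, below 0 with each library rescaled), and Ccnd2, cyclin D2, was the highest at 61.0 and 81.6 FPKM (change 0.41).

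**Figure D5:**
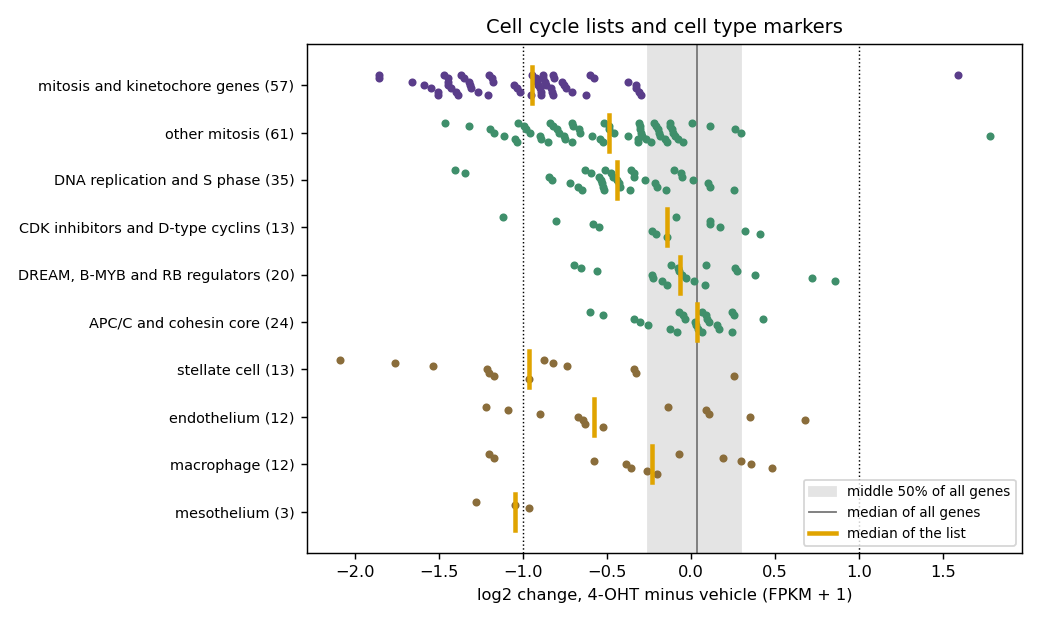
Change as log2(FPKM + 1), 4-OHT minus vehicle, of genes at 1 FPKM or more (points) in the members, 5 further cell cycle lists and 4 cell type marker lists, with the number of genes in brackets, list medians in yellow and the middle 50% of all genes in grey. Medians were −0.94 for the members, −0.49 and −0.44 for further mitosis and replication genes, and −0.96 and −0.23 for stellate cell and macrophage markers.

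Markers of the cell types also differed between the libraries, to unlike degrees. Of 13 stellate cell markers 6 were at least 2-fold lower, beside 3.48% of all genes. Their median change was −0.96, and the summed level was 0.495 of the vehicle value. Of 12 endothelial markers 2 were lower, with a median of −0.57 and a summed ratio of 0.955. Of 12 macrophage markers 2 were lower, with a median of −0.23, and 8 lay below and 4 above their vehicle level. Their summed ratio was 0.670, and Lyz2 made up 3050 of the 6174 FPKM with vehicle and 1353 of the 4139 with 4-OHT. Of 5 mesothelial markers 3 reached 1 FPKM and 2 were lower, and the 5 summed to 5.34 and 0.971 FPKM. Of the other types listed, cholangiocytes had the highest sum, 99.6 and 37.4 FPKM, of which Spp1, a gene also made by other cells, gave 94.8 and 34.5, while Krt19 was at 4.39 and 2.57, Epcam at 0.364 and 0.333, and Krt7 and Sox9 were not listed. The 13 proteins encoded by mitochondrial DNA had a median change of −1.24, with 10 at least 2-fold lower. The part of any of these in the lower mitotic levels was not tested.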

How the data were processed

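RNA-seq was analysed from 1 gene table with 1 library per group (n = 1, vehicle and 4-OHT). Its FPKM values, its log2 fold changes of FPKM plus 1 and its p-values and q-values were made and deposited by the authors, as the file headers name them. The submitters' processing notes name STAR, Cufflinks and build GRCm38, with no version. How the libraries were scaled to each other and filtered is not stated in the sources used here. All 17145 identifiers matched GENCODE M21. In 20 rows a symbol turned into a date was restored, and for 17 symbols on more than 1 row the row with the largest sum was kept, which left 17128.

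Changes used a pseudocount of 1, and calls needed 1 FPKM in the higher library and a 2-fold change. Depth came from genes with 1 transcript longer than 600 bases: FPKM times length, less 176 bases with vehicle and 170 with 4-OHT, fell within 0.1 of a whole fragment for 97.8% of 361 and 98.9% of 451 low values, against 20% by chance. Intervals are exact (Clopper-Pearson, scipy 1.17.1) and cover counting error only.

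The members, lists and thresholds were chosen with earlier results of these data known. Named were the 3 members of each role with the largest change, any member 2-fold higher, 9 set genes, and the 2 lowest and the highest gene of each further list; other members and genes, and the promoters shown, were named after their values were seen. Code was tested on simulated data. Promoters came from RefSeq (GRCm38.p6), and copies from blastn of each member's longest transcript on GENCODE M21 transcripts.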

Additional observations from a re-analysis of the deposited data

How the results depend on the processing

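The count of members at least 2-fold lower changed with the added constant, the rescaling and the call rule, and centring left it at 27. Under pseudocounts of 0.1 and 5, no minimum, rescaling, centring and the plain ratio, 56 of 57 members were below their vehicle level. Pttg1 was above it, from 1.42 to 1.64. The added constant, the plain ratio and the lack of a minimum cannot change a direction. Rescaling and centring shifted the median of all genes down, by −0.16 and −0.03, and so could not turn a lower member. The direction of the lower members was therefore not put to a test by these settings. Against 27 lower and a median of −0.94, a pseudocount of 0.1 gave 41 and −1.47, a pseudocount of 5 gave 4 and −0.51, and a ratio with nothing added (chosen after seeing the data) gave 46 and −1.54. Rescaling each library to a common sum gave 46 and −1.32; it shifted the median of all genes by −0.16 and, since it raises every value, also lessened the weight of the added 1. A minimum of 5 FPKM left 33 members with a median of −1.27. Of these 19 were lower, beside 3.52% of all genes at that minimum. The authors' deposited q-values called 8 lower, against 0.753% of all genes. Leaving out 16 members that share exonic bases with another gene (also chosen after seeing the data) left 41, of which 16 were lower. By fragments, the 1 single-transcript member, Ccnb2, was lower at −2.83, with 1 lower and 0 higher by construction. The 8 further mitosis genes that were lower became 19 with a pseudocount of 0.1, 0 with 5, 2 with a minimum of 5 FPKM, 20 rescaled, and 1 of 4 by fragments, where 0 were higher. The 2 replication genes became 0 with a pseudocount of 5, 4 rescaled and 0 of 2 by fragments. The DREAM, B-MYB and RB list gave 2 lower with a pseudocount of 0.1. The CDK inhibitor list gave 0 lower with a pseudocount of 5. It also gave 0 with a minimum of 5 FPKM and by fragments, where 1 gene was left. Those 2 settings dropped Cdkn2c, its 1 lower gene, and so did not measure it again. The further causes were not tested. No paired analysis was possible because each group had 1 library, and no library could be left out.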

Other observations

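The surroundings of Pttg1 on chromosome 11 gave values of their own. Slu7, a splicing factor gene on the opposite strand (43433744 to 43447981), was at 33.3 FPKM with vehicle and 58.7 with 4-OHT (change 0.80), within 2-fold. The next measured gene beyond it, C1qtnf2, was at 0.852 and 0.535 FPKM, and on the other side the pseudogene Hspd1-ps3 was at 1.91 and 2.75 FPKM and Ccng1, a p53 target, at 108 and 72.0 FPKM. Kif20a and Cdc25c, the members nearest to each other, lie 99715 bases apart on chromosome 18 and had changes of −1.05 and −0.89.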
